A study of Caenorhabditis elegans with 4 samples.

Results

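The sites described here are the 367 HTZ-1 peaks that lie in the 2 large piRNA gene clusters of C. elegans chromosome IV, out of 7546 peaks called for the whole series. A peak was counted as a member when its midpoint fell between 4.5 and 7.0 Mb (the left cluster, 178 peaks) or between 13.5 and 17.2 Mb (the right cluster, 189 peaks), in WormBase WS220 positions. Members were therefore chosen by position, and no peak score, width or replicate entered the choice. The remainder of chromosome IV held 985 peaks of the same list. Chromatin immunoprecipitation and sequencing (ChIP-seq) was done with an affinity-purified rabbit polyclonal antibody to the N-terminus of HTZ-1. The material was mixed-stage embryos of the wild-type strain N2 (20 °C, males and hermaphrodites), obtained by bleaching adults from liquid culture and fixed with formaldehyde. All 4 samples came from such embryos, 2 of them HTZ-1 ChIPs and 2 inputs, and the inputs were not analysed here. Each ChIP replicate has its own peak list, with 3848 peaks in replicate 1 and 3650 in replicate 2, and the list of 7546 peaks that belongs to the series as a whole is referred to below as the combined list. The clusters held 163 peaks of replicate 1 (83 left, 80 right) and 167 peaks of replicate 2 (86 left, 81 right).

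HTZ-1 is the worm form of H2A.Z, a histone variant that takes the place of H2A in some nucleosomes and is known in many organisms for flanking transcription start sites. The piRNAs of C. elegans, also called 21U-RNAs, are short RNAs that guide the Argonaute protein PRG-1 in the germ line, where they help silence foreign and repetitive sequences. Most are made from very short transcription units of their own, each with its own upstream promoter motif, that sit between and within ordinary protein-coding genes along 2 broad domains of chromosome IV. In the RefSeq gene table for the assembly WBcel235, 14714 of the 15363 piRNA genes (95.8%) were on chromosome IV, and 14370 of those had another piRNA gene as a direct neighbour. Chromosome IV carried 3281 protein-coding genes in the same table. That table is on another assembly than the peaks, so which genes lie under a given peak was not analysed here. Whole embryos were used, in which most cells are somatic and the germ-line precursors are few, so each peak is an average over all cell types of the embryo.

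HTZ-1 peaks were sparser in the right cluster than in the rest of chromosome IV, while the left cluster lay between the other 2 regions. The right cluster had 51.5 ± 32.0 peaks per Mb (SD, n = 15 bins of 250 kb) in the combined list, and the rest of IV had 87.3 ± 32.4 (SD, n = 45 bins). The ratio was 0.590, with a 95% interval over bins of 0.423 to 0.822. The spreads overlapped, and the fullest bin of the right cluster, at 108 peaks per Mb, exceeded the median bin of the rest of IV, at 88. Replicate 1 had 21.7 ± 10.7 peaks per Mb in the right cluster and 43.5 ± 14.6 in the rest of IV (ratio 0.498, interval 0.381 to 0.652). Replicate 2 had 21.9 ± 11.7 in the right cluster and 40.9 ± 15.2 in the rest of IV (ratio 0.536, interval 0.401 to 0.718). The right cluster thus had the lower density in all 3 lists, and the replicate ratios differed from each other by less than the width of either interval.

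The left cluster had 71.2 ± 23.2 peaks per Mb (SD, n = 10 bins), or 0.816 times the density of the rest of IV (interval 0.649 to 1.03). The ratio was 0.764 in replicate 1 (0.586 to 0.996) and 0.841 in replicate 2 (0.630 to 1.12). Intervals that reach or nearly reach 1 leave this difference undecided. Set against the right cluster, the left cluster was 1.38 times as dense in the combined list (0.952 to 2.01), 1.53 times in replicate 1 (1.08 to 2.18) and 1.57 times in replicate 2 (1.07 to 2.29). The direction was the same in every list, and only the combined list had an interval that included 1. Measured as length, peaks of the combined list covered 61.1 ± 26.5 kb per Mb of the left cluster, 44.5 ± 27.0 kb of the right cluster and 76.8 ± 28.1 kb of the rest of IV. Together the clusters made up 35.4% of the chromosome's span and held 27.1% of its combined-list peaks, 24.9% of its replicate 1 peaks and 26.6% of its replicate 2 peaks. No test was run on these differences, because each cluster is a single stretch of 1 chromosome and 2 replicates cannot give an exact two-sided p below 0.5. Neighbouring bins are not independent, so the intervals can be too narrow.

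**Figure D1:**
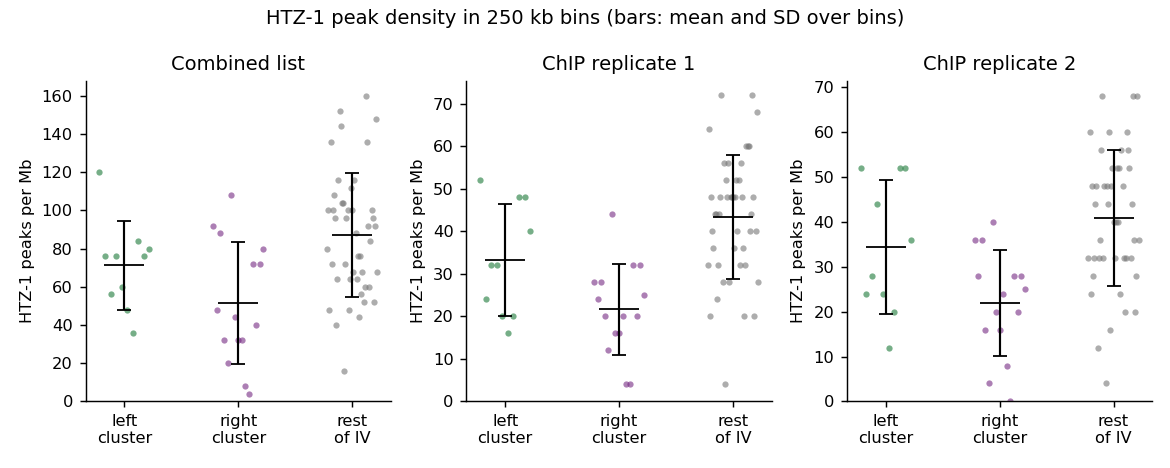
HTZ-1 peaks per Mb in 250 kb bins (points) of the left cluster, the right cluster and the rest of chromosome IV, with the mean and SD over bins (bars), for the combined list and each ChIP replicate. The right cluster has the lowest mean in each list, at 51.5, 21.7 and 21.9 peaks per Mb, and its bins overlap those of the other regions.

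The clusters were uneven inside. In the left cluster, the 10 bins held between 9 and 30 combined-list peaks, with a median of 19. The fullest was the first, 4500001 to 4750000, with 30 peaks in the combined list and 13 in each replicate. The emptiest ran from 6000001 to 6250000, with 9 peaks in the combined list and 5 in each replicate. Both replicates had their lowest count in the bin before it, 5750001 to 6000000, with 4 peaks in replicate 1 and 3 in replicate 2. The left cluster thus had its fullest combined-list bin at its lower edge, dipped in the middle and was fuller again over its last 0.75 Mb, where bins held 19 to 21 combined-list peaks.

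In the right cluster the 15 bins held between 1 and 27 combined-list peaks, with a median of 11. The fullest, 14750001 to 15000000, had 27 peaks in the combined list, 11 in replicate 1 and 10 in replicate 2. The emptiest, 16000001 to 16250000, had 1 peak in the combined list, 1 in replicate 1 and none in replicate 2. The bin just before it had 2 peaks in the combined list, 1 in replicate 1 and 2 in replicate 2. In the combined list the right cluster therefore ranged from a bin nearly as full as the densest of the left cluster to adjacent bins with almost no peak. Most of its bins lay in between. The replicate counts were within 1 peak of each other in 21 of the 25 bins of both clusters, and the largest difference was 3 peaks.

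**Figure D2:**
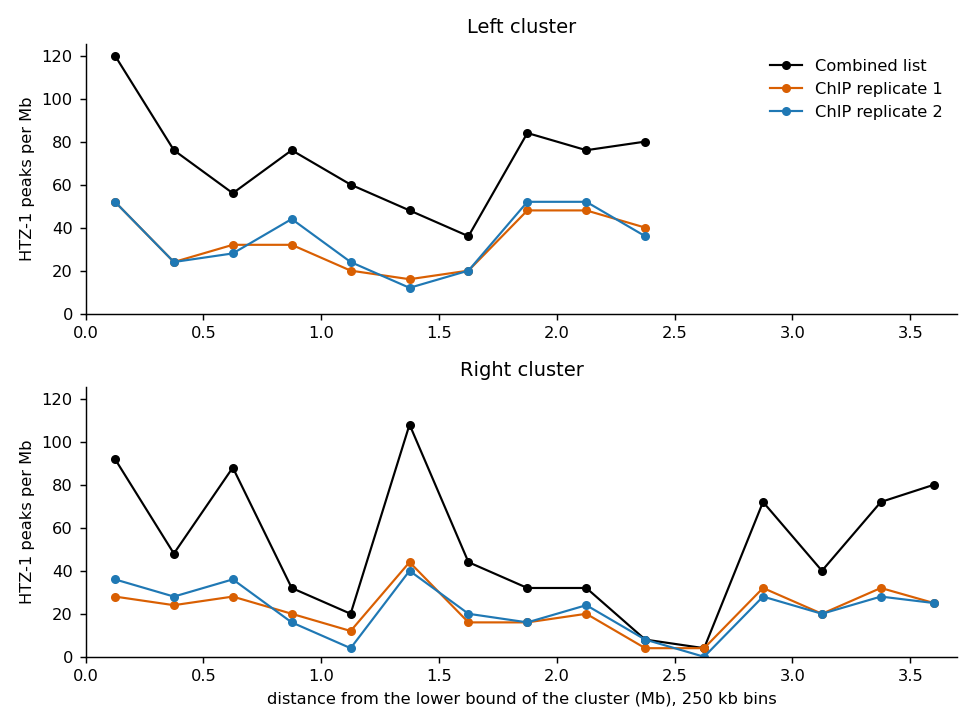
HTZ-1 peaks per Mb along the left and the right cluster in 250 kb bins, by distance from the lower bound of each cluster, for the combined list and each ChIP replicate. The right cluster has a trough of 8 and 4 peaks per Mb in the combined list between 2.25 and 2.75 Mb from its lower bound.

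Long stretches with no HTZ-1 peak took up more of the clusters than of the chromosome around them. A peak-free stretch is the distance from the end of one peak to the start of the next. Stretches of 20 kb or more took up 72.9% of the left cluster, 83.6% of the right cluster and 58.4% of the rest of IV in the combined list. Averaged over bins, the right cluster exceeded the rest of IV by 25.3 percentage points (95% interval 17.9 to 32.6) and the left cluster did so by 14.6 points (6.95 to 22.3). In the replicate lists the excess of the right cluster was 19.7 points (13.1 to 26.3) in replicate 1 and 16.7 points (9.96 to 23.4) in replicate 2. For the left cluster it was 8.59 points (-0.54 to 17.7) in replicate 1 and 3.17 points (-7.56 to 13.9) in replicate 2. The excess in the right cluster was thus present in each list, whereas that of the left cluster had intervals including 0 in both replicates. Between the clusters, the left had 10.7 points less than the right in the combined list (difference -10.7, interval -18.96 to -2.38), with differences of -11.1 in replicate 1 and -13.5 in replicate 2.

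In the combined list the stretches were about as frequent in each region, and those of the clusters were longer. The left cluster had 14.4 stretches of 20 kb or more per Mb, the right cluster 13.2 and the rest of IV 13.9. In the replicate lists they were less frequent in the clusters, at 11.2 per Mb (left) and 9.19 (right) against 13.9 in replicate 1, and at 10.8 (left) and 8.65 (right) against 14.3 in replicate 2. Stretches of 50 kb or more numbered 4.40 per Mb in the left cluster (11 in all), 7.03 per Mb in the right cluster (26) and 3.45 per Mb in the rest of IV (39) in the combined list. In replicate 1 they numbered 5.6 per Mb in the left cluster, 5.14 in the right cluster and 4.69 in the rest of IV, and in replicate 2 they numbered 5.6, 5.95 and 4.60, so the order of the clusters differed between lists. Those of the combined list took up 37.96% of the left cluster, 63.5% of the right cluster and 24.5% of the rest of IV. Of the 10 stretches of 100 kb or more on the chromosome in the combined list, 6 were in the right cluster, 2 in the left cluster and 2 elsewhere. The counts in that order were 11, 2 and 6 in replicate 1 and 12, 3 and 8 in replicate 2. Much of the length in stretches of 50 kb or more was common to all lists. In the left cluster 36.5% of the length lay in such stretches in the combined list and both replicates at once, in the right cluster 61.7%, and in the rest of IV 23.2%. These shares are not independent agreement. Every replicate 1 peak of the chromosome overlapped a combined-list peak, and replicate 2 peaks that did not numbered 4 (left), 2 (right) and 2 (rest). Length empty in the combined list is therefore mostly empty in the replicates too.

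The longest stretch of the left cluster ran from 4811109 to 5035487 and was 224 kb long. It was followed in length by 5210971 to 5318664 (108 kb) and 5754710 to 5841716 (87.0 kb). The replicates left nearly the same first stretch empty, with 264 kb in each, from 4811745 to 5075811 in replicate 1 and from 4811703 to 5075758 in replicate 2. In the right cluster the 3 longest stretches of the combined list were next to each other. They ran from 15667160 to 15801359 (134 kb), from 15801822 to 15984036 (182 kb) and from 15984906 to 16239810 (255 kb). The last of these was the longest peak-free stretch of the combined list on any of the 6 chromosomes, and the longest one of the left cluster had rank 3. The left cluster's longest stretch ranked lower in the replicates, at 7 in replicate 1 and 10 in replicate 2. The longest stretch of replicate 1 in the right cluster was 334 kb (rank 3 over all chromosomes) and that of replicate 2 was 416 kb (rank 1). The span of these 3 stretches, picked after their values were seen, was 573 kb and held 2 combined-list peaks. One, at 15801360 to 15801821, overlapped a peak of replicate 2 alone, and the other, at 15984037 to 15984905, overlapped peaks of both replicates. Replicate 1 had 1 peak in that span and replicate 2 had 2, all of low score in their lists, at percentile 8.99 in replicate 1 and at 9.15 and 28.1 in replicate 2.

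**Figure D3:**
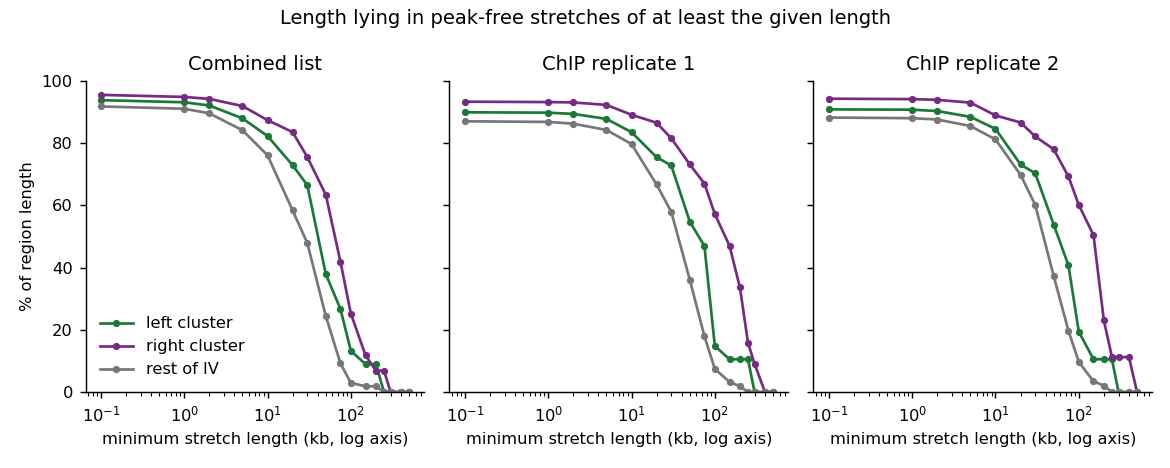
Share of each region's length that lies in peak-free stretches of at least the length on the x axis (kb, log axis), for the left cluster, the right cluster and the rest of chromosome IV in each list. The right cluster lies above the other regions at 20 and 50 kb in each list, with 63.5% of its length in stretches of 50 kb or more in the combined list, against 37.96% for the left cluster and 24.5% for the rest of IV.

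Between the empty stretches the members stood in groups, many of them of a single peak. Neighbouring members were 2.98 kb apart in the left cluster and 3.76 kb in the right cluster by the median, against 3.54 kb in the rest of IV. When peaks less than 20 kb apart were joined into groups, a step added after the lists had been examined, the left cluster had 36 groups, the right cluster 49 and the rest of IV 158. The median group had 2 peaks in each cluster and 4 in the rest of IV in the combined list, 2 in each cluster and 3 in the rest of IV in replicate 1, and 2 in every region in replicate 2. Groups of a single peak made up 38.9% of those in the left cluster and 40.8% in the right cluster, against 17.1% in the rest of IV. The median group spanned 7.70 kb in the left cluster and 5.04 kb in the right cluster, against 22.2 kb in the rest of IV. In the combined list the occupied parts of the clusters were thus about as numerous per Mb as elsewhere, and shorter. In the replicate lists single peaks were 46.4% and 44.4% of the groups in the left cluster and 44.1% and 40.6% in the right cluster, against 25.9% and 30.1% in the rest of IV (replicate 1 before replicate 2).

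In the combined list large groups carried much of each cluster, and also of the rest of IV. Groups of 5 or more peaks held 79.2% of the peaks in the left cluster, 69.5% in the right cluster and 79.9% in the rest of IV. In replicate 1 these shares were 60.2%, 31.3% and 42.6%, and in replicate 2 they were 66.3%, 34.6% and 36.1%. The largest group of the left cluster ran from 4695625 to 4811108 and held 34 combined-list peaks over 115 kb. This was 19.1% of that cluster's members, with 13 peaks of replicate 1 and 14 of replicate 2 in the group. That group ended where the 224 kb stretch began. The next, from 6548457 to 6649908, held 16 peaks of the combined list, 10 of replicate 1 and 8 of replicate 2. The largest of the right cluster ran from 14031040 to 14128696 and held 22 combined-list peaks, 7 of replicate 1 and 9 of replicate 2. A group of 21 peaks from 13499586 to 13541844 crossed the lower bound of the right cluster.

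Members did not differ detectably in width from other peaks of the chromosome. The median width in the combined list was 721.5 bp in the left cluster (quartiles 295 and 1357 bp), 577 bp in the right cluster (290 and 1202 bp) and 696 bp in the rest of IV (305 and 1355 bp). The ratio of medians was 1.04 for the left cluster over the rest of IV (95% interval 0.755 to 1.34) and 0.829 for the right cluster over the rest (0.675 to 1.11). Left over right was 1.25 (0.844 to 1.66). All 3 intervals included 1, and these intervals cover the counting of peaks alone. In replicate 1 the medians were 2540 bp in the left cluster, 2369 bp in the right cluster and 2511 bp in the rest of IV. In replicate 2 they were 2397.5 bp in the left cluster, 2239 bp in the right cluster and 2410.5 bp in the rest of IV. The right cluster had the narrowest median in each list. Its ratio to the rest of IV was 0.943 in replicate 1 (0.823 to 1.13) and 0.929 in replicate 2 (0.844 to 0.998), so only replicate 2 excluded 1.

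The score that the authors' caller gave each peak ranked lower in the right cluster in the replicate lists. In replicate 1, 37.5% of the right cluster's peaks were in the upper 50% of the whole list, against 53.2% in the rest of IV (difference -15.7 percentage points, 95% interval -26.4 to -3.85). In replicate 2 it was 37.0% in the right cluster against 55.8% in the rest of IV (difference -18.8, interval -29.5 to -7.01). The left cluster had 53.0% in replicate 1 and 46.5% in replicate 2, at differences from the rest of IV of -0.14 (-11.6 to 11.1) and -9.33 (-20.4 to 2.08). By this share the right cluster therefore stood below the rest of the chromosome in both replicates, and the left cluster did not do so detectably.

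Over the whole combined list the share in the upper 50% was 48.9% in the left cluster, 45.5% in the right cluster and 49.1% in the rest of IV. The differences had intervals that included 0 (-11.2 to 4.13 points for the right cluster minus the rest). The top 25% by score took in 24.7% of the left cluster's peaks, 15.9% of the right cluster's and 26.1% of those in the rest of IV. No interval was computed for differences at that cut. That list also holds many weak peaks that no replicate list has. Among its 4344 peaks that overlap both replicates, ranked on their own, 48.5% of the left cluster's 103 were in the upper 50%, 28.7% of the right cluster's 108 and 49.0% of the 592 in the rest of IV. The interval of the difference between the right cluster and the rest was -28.96 to -10.3 points. The lower rank of the right cluster was thus present among the combined-list peaks that overlap both replicates. Several of these can lie under 1 replicate peak, so they are not all separate sites. Ranked instead by the replicate peaks they overlap, 42.6% of the right cluster's 108 were in the upper 50% of both replicate lists. It was 49.5% in the left cluster and 57.3% in the rest of IV. At the top of the combined list, 14 members of the left cluster (7.87%, exact 95% interval 4.37% to 12.8%) and 12 of the right cluster (6.35%, 3.32% to 10.8%) were in the top 10% by score, against 109 in the rest of IV (11.1%, 9.17% to 13.2%). The intervals of these differences included 0 for each cluster (-6.97 to 2.03 points for the left and -8.13 to 0.06 for the right, each minus the rest of IV). For both clusters together the difference was -3.98 points, with an interval that left out 0 (-7.03 to -0.40). The right cluster was not lower in the top 10% of the replicate lists. Because of tied scores, that class held 13.4% of the whole replicate 1 list (517 of 3848 peaks), and 10% of the replicate 2 list. In replicate 1 the right cluster had 15.0% there, the left cluster 15.7% and the rest of IV 13.0%. In replicate 2 it had 12.3%, the left cluster 8.14% and the rest of IV 10.8%. The differences of the right cluster from the rest had intervals of -5.05 to 11.8 and -4.82 to 10.8 points.

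Support in the replicate lists did not differ detectably between members and other peaks of the chromosome. A combined-list peak was counted as supported by a replicate when it shared at least 1 bp with one of its peaks, which held in both replicates for 57.6% of the whole list. It held for 103 of 178 members in the left cluster (57.9%, exact interval 50.3% to 65.2%) and 108 of 189 in the right cluster (57.1%, 49.8% to 64.3%), against 592 of 985 in the rest of IV (60.1%, 56.97% to 63.2%). The shares of the clusters are thus close to the background of the list. The difference from the rest of IV was -2.24 percentage points for the left cluster (-10.2 to 5.43) and -2.96 for the right cluster (-10.7 to 4.55). When the overlap had to cover 50% of both peaks, the right cluster lay below the rest of IV by an interval that left out 0 (difference -9.39, interval -14.4 to -3.21), and the left cluster did not (-1.80, interval -7.84 to 5.26). This rule also depends on width, since the median peak was 720.5 bp in the combined list, 2425 bp in replicate 1 and 2388.5 bp in replicate 2. The share of width in that difference was not tested. With 50% of the shorter peak, the right cluster's difference was -2.70 (-10.4 to 4.85). Neither replicate had a peak at 38 members of the left cluster (21.3%) and 47 of the right cluster (24.9%), against 229 peaks in the rest of IV (23.2%) and 23.3% of the whole list. Replicate 1 alone supported 30 left (16.9%) and 29 right members (15.3%), against 12.9% in the rest of IV and 13.9% of the whole list. Replicate 2 alone supported 7 left (3.93%) and 5 right members (2.65%), against 3.76% in the rest of IV and 5.23% of the whole list. The larger share for replicate 1 was thus found over the whole list.

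Supported members were the broad and high-scoring ones, as in the rest of the chromosome. The members found in both replicates had a median width of 1237 bp in the left cluster and 1057 bp in the right cluster, against 1199.5 bp in the rest of IV. Those found in neither had a median of 286 bp in each cluster, against 259 bp in the rest of IV. All 44 left and all 30 right members in the top 25% of the combined list by score were in both replicates, as were all 257 such peaks of the rest of IV. In the lowest 25% the share was 12.7% in the left cluster (7 of 55, exact interval 5.27% to 24.5%) and 31.5% in the right cluster (17 of 54, 19.5% to 45.6%), against 22.7% in the rest of IV (54 of 238, 17.5% to 28.5%). Seen from the replicate lists, 90.4% of the left cluster's and 87.5% of the right cluster's replicate 1 peaks overlapped a replicate 2 peak, against 87.6% in the rest of IV and 85.9% in the whole list. For replicate 2 it was 93.0% in the left cluster and 92.6% in the right cluster, against 95.2% in the rest of IV and 93.6% in the whole list. These shares lie close to those of the whole lists.

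**Figure D4:**
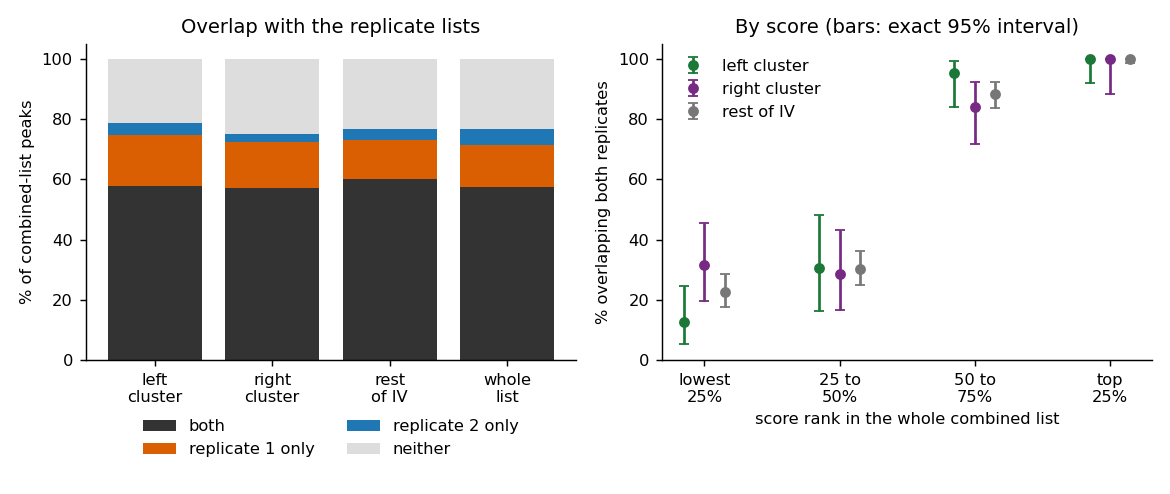
Left panel, share of combined-list peaks that overlap both, 1 or neither of the replicate lists in the left cluster, the right cluster, the rest of chromosome IV and the whole list. Right panel, share overlapping both replicates by score rank in the combined list, with exact 95% intervals, where all members in the top 25% are supported and 12.7% (left cluster) and 31.5% (right cluster) of those in the lowest 25% are.

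The strongest members of the right cluster outranked those of the left in the combined list. The highest score of the right cluster was at 16864445 to 16868709, a peak 4265 bp wide that ranked 14th of 7546 and stood at the tied score of 3100 in both replicates, a value reached or passed by 517 peaks of replicate 1 and 177 of replicate 2. It was followed by 16655417 to 16658393 (rank 28), 14463411 to 14465157 (rank 56), 17086450 to 17088541 (rank 65) and 15470519 to 15476540 (rank 76). Of these 5, 4 stood at 3100 in both replicates, and the peak at 14463411 did so in replicate 1 and scored 2503 in replicate 2. The highest score of the left cluster was at 5394124 to 5395629, at rank 150, with replicate scores of 2139 (replicate 1) and 3065 (replicate 2). The next were 4649829 to 4651603 (rank 174, at 3100 in both replicates), 5363478 to 5365300 (rank 199), 6376032 to 6377487 (rank 210) and 6156124 to 6157721 (rank 240). The first 5 of the right cluster thus all ranked above the first of the left.

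The widest members of the combined list were also wider in the right cluster than in the left. The widest peak of replicate 2 was 5790 bp in the left cluster and 6782 bp in the right cluster. In replicate 1 the order was the other way, with 9553 bp in the left cluster and 9227 bp in the right cluster. The widest member of the right cluster, at 15470519 to 15476540, was 6022 bp and was met by peaks of 6978 bp in replicate 1 and 6782 bp in replicate 2. The next were the top-ranked peak at 16864445, with 4265 bp, and 13785767 to 13789452, with 3686 bp. The widest of the left cluster were 6321384 to 6324623 (3240 bp), 4758043 to 4760636 (2594 bp) and 6788737 to 6791204 (2468 bp). All 6 were supported by both replicates. The peak of 6022 bp was the widest of all 4344 combined-list peaks found in both replicates.

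Members with no support in either replicate were weak. The highest-scoring one of the left cluster was at 6704774 to 6705160, 387 bp wide and at the 53.7th percentile of score. That of the right cluster was at 17135798 to 17136172, 375 bp wide and at the 51.9th percentile. Most unsupported members lay below the middle of the list, with 1 of 38 in the left cluster and 2 of 47 in the right cluster in the upper 50%. The same held for unsupported peaks elsewhere, with 4 of 229 in the rest of IV and 45 of 1761 in the whole list.

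Peaks beside the bounds spanned a wide range of scores. The first member of the left cluster, 4509203 to 4510851, stood at percentile 52.9 of the combined list, and the nearest peak outside, 4469977 to 4470480, at 21.2. The last, 6958625 to 6959113, stood at 45.3 and the nearest outside, 7011495 to 7012622, at 62.1. At the lower bound of the right cluster the member at 13499862 to 13500865 (percentile 63.4) and the outer peak at 13499586 to 13499770 (15.4) lay under the same peak of each replicate, so that bound divided 1 occupied site. At the upper bound the nearest peaks were 17167151 to 17167309 inside (23.6) and 17206603 to 17206849 outside (9.10).

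The sparse occupation of the right cluster was then set beside the stretch of the same length at the same distance from the right end of the other autosomes, since chromosome arms and centres differ in gene content. Relative to the remainder of its own chromosome, which for IV includes the other cluster, the right cluster had 0.606 times the peak density in the combined list. The matching stretches had 0.801 on I, 1.28 on II, 1.22 on III and 0.808 on V. In replicate 1 the ratio was 0.520 for the right cluster, against 0.773 on I, 1.18 on II, 1.10 on III and 0.597 on V. In replicate 2 it was 0.551 for the right cluster, against 0.756 on I, 1.12 on II, 1.04 on III and 0.662 on V. The right cluster had the lowest ratio of the 5 in each list, with V next in both replicates. In absolute terms it was not the sparsest, since it had 51.1 combined-list peaks per Mb and the stretch on V had 44.1. With 1 stretch on each of 5 autosomes an exact test cannot go below p = 0.2, so none was run.

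For the left cluster the stretches at the same fractions of the other autosomes were used. Its ratio was 0.909 in the combined list, against 0.943 on I, 0.954 on II, 1.23 on III and 1.04 on V. In replicate 1 it was 0.872, against 0.933 to 1.29 on the other autosomes, and in replicate 2 it was 0.9499, against 0.928 to 1.22. The left cluster thus lay close to I and II in the combined list and was not the lowest in replicate 2. Its longest peak-free stretch in the combined list, 224 kb, exceeded those of the matching stretches, which were 90.3 kb on I, 123 kb on II, 79.5 kb on III and 147 kb on V. By share of length in stretches of 20 kb or more, however, V lay above the left cluster in each list, with 72.9% in the left cluster and 77.4% on V in the combined list, 75.5% and 83.9% in replicate 1, and 73.2% and 83.1% in replicate 2, where II also lay above it at 77.5%. The longest stretch of the right cluster, 255 kb, was set against 97.2 kb on I, 109.8 kb on II, 63.7 kb on III and 195 kb on V. In replicate 1 the stretch on V held the longer one, with 334 kb in the right cluster and 417 kb on V, and in replicate 2 they had 416 kb and 413 kb. Stretches of 20 kb or more took up 83.6% of the right cluster and 82.9% of the stretch on V in the combined list, 86.6% and 89.7% in replicate 1, and 86.7% and 89.7% in replicate 2, so on this measure V was as empty as the right cluster or emptier.

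**Figure D5:**
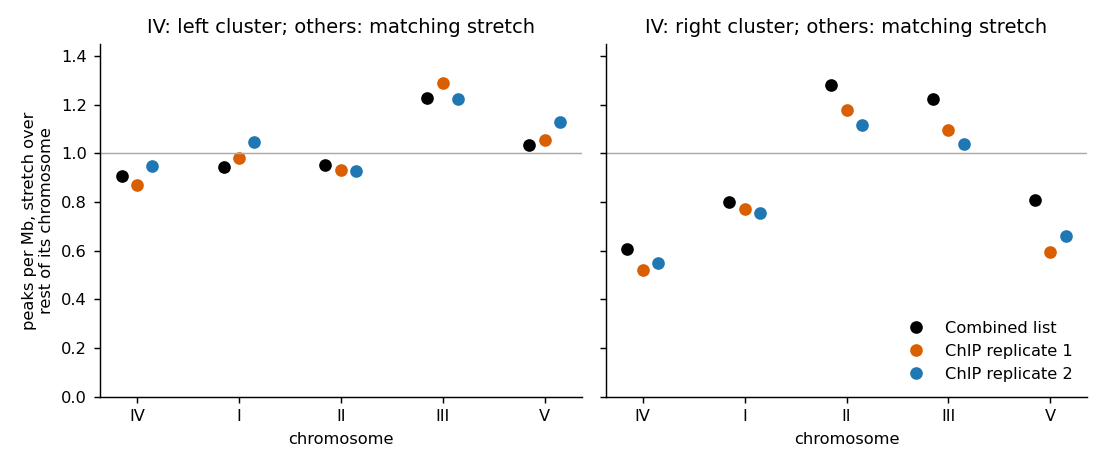
Peaks per Mb in each cluster of chromosome IV divided by the density of the remainder of the chromosome (the other cluster included), and the same ratio for a matching stretch of chromosomes I, II, III and V, for the combined list and each ChIP replicate (left panel: left cluster, right panel: right cluster; the line marks a ratio of 1). The right cluster is the lowest of the 5 chromosomes in each list, at 0.606, 0.520 and 0.551, while the left cluster is within the range of the others in replicate 2.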

How the data were processed

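Per the labels, 2 HTZ-1 ChIP samples and 2 input samples were sequenced, grouped here by their titles. The peak lists were made by the authors with MACS (replicates) and MACS v2 (combined list) on WormBase WS220, per the file headers and source columns, from reads aligned with BWA to ce10, per the submitters' processing notes. Thresholds, the role of the input and the making of the combined list are not given in the sources used here. The deposited score of each peak has no stated scale and was used as ranks within its own list. Read depth is unknown.

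From these lists, densities were counted by midpoint in 250 kb bins (a shorter last bin was scaled to its length, or left out at 50% of that size or less), with delta-method intervals of ratios over bins. Shares of peaks have exact binomial intervals, differences of such shares Newcombe intervals, and medians order-statistic intervals, all at 95% and for counting error only. Differences in the share of length in peak-free stretches have normal 95% intervals from the means over 250 kb bins. A long stretch can fill neighbouring bins, so these intervals can be too narrow. The span of IV was taken to the furthest peak end in any list (17.5 Mb). The code was tested on simulated data (Python 3.11.15, numpy 2.4.6, pandas 2.3.3, scipy 1.17.1). Peaks were placed independently there, with 200 lists per setting. The 95% interval of the right cluster's density ratio to the rest of IV held the true value in 93.5% of lists at equal density. At 50% of the density it did so in 91.5%. Coverage for grouped peaks, as in these lists, was not tested. Named peaks are, per cluster, the 5 highest scores found in both replicates, the 3 widest, the highest score in neither, the 3 longest stretches, the fullest and emptiest bins and the peaks at the bounds. Members and rules were chosen with earlier results of these data known. The grouping of peaks less than 20 kb apart was added after the lists had been examined. The labels do not say whether replicates came from separate cultures. Alternatives were single replicate lists, supported or top-scoring peaks, moved bounds, merged peaks, covered length, other bins and stricter overlap.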

Additional observations from a re-analysis of the deposited data

How the results depend on the processing

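Each comparison was repeated under its alternatives, 97 in all, and 85 of these values stayed inside the 95% interval of the reported one. None of the differences whose interval excluded no difference changed direction. The density ratio stayed between 0.498 and 0.605 for the right cluster over the rest of IV, between 0.733 and 0.841 for the left cluster over the rest, and between 1.37 and 1.57 for left over right. The excess of length in stretches of 20 kb or more shrank where fewer peaks were counted. For the right cluster it was 15.6 points over peaks in both replicate lists, 14.6 over the top 50% by score and 16.7 to 19.7 in single replicate lists. For the left cluster it was 6.47 points over peaks in both replicate lists, 5.65 over the top 50% by score and 3.17 to 8.59 in single replicate lists. The share in the upper 50% by score moved most. For the right cluster minus the rest of IV it was -20.3 points over peaks in both replicate lists and -18.8 to -15.7 in single replicate lists, against -3.63 over the whole combined list. For left minus right it was 19.8 points over peaks in both replicate lists and 9.47 to 15.5 in single replicate lists, against 3.37 over the whole list. For the left cluster minus the rest it ran from -9.33 to -0.14 in single replicate lists. With bounds moved inwards by 0.25 Mb, left minus right was -2.00 points and the right cluster minus the rest 0.52, both with intervals that included 0, as before. The left cluster's density ratio to the rest of IV then had an interval below 1 (0.594 to 0.905), as it did with peaks less than 1 kb apart merged (0.627 to 0.951). Left over right had an interval above 1 with such peaks merged (1.10 to 2.00) and in bins of 500 kb (1.02 to 2.03). The difference in stretch share between left and right had an interval including 0 with the bounds moved inwards (-19.1 to 0.90). The cause was not tested. Each replicate gives its own comparison between regions, and no paired test over the 2 replicates was run, since its exact two-sided p cannot be below 0.5. The lists give no read counts, so sites too weak to be called cannot be told from empty ones.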

Other observations

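Some single replicate peaks held several peaks of the combined list. In replicate 1, 26 of the left cluster's 83 peaks (31.3%, exact 95% interval 21.6% to 42.4%) and 31 of the right cluster's 80 (38.8%, 28.1% to 50.3%) held at least 2 combined-list peaks, against 145 of 491 in the rest of IV (29.5%, 25.5% to 33.8%). In replicate 2 it was 20 of 86 in the left cluster (23.3%, 14.8% to 33.6%) and 29 of 81 in the right cluster (35.8%, 25.4% to 47.2%), against 120 of 462 in the rest of IV (26.0%, 22.03% to 30.2%). The share was highest in the right cluster in both replicates, and the intervals overlapped. One replicate 1 peak of the right cluster held 8 combined-list peaks, more than any other replicate 1 peak of the chromosome, where the highest counts were 6 in the left cluster and 6 in the rest of IV. In replicate 2 the highest counts were 3 in the left cluster and 4 in the right cluster, against 7 in the rest of IV.

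In the combined list the right cluster had the narrowest median width and also the largest share of wide peaks of the 3 regions. Peaks of 2 kb or more, a limit chosen after widths were seen, were 7 of 178 in the left cluster (3.93%, 1.60% to 7.93%) and 18 of 189 in the right cluster (9.52%, 5.74% to 14.6%), against 56 of 985 in the rest of IV (5.69%, 4.32% to 7.32%). All 7 and all 18 were found in both replicates, as were 55 of the 56. In replicate 1 the share of 2 kb or more was 77.1% in the left cluster and 65% in the right cluster, against 75.2% in the rest of IV. In replicate 2 it was 74.4% and 65.4%, against 76.8%. These shares are not a like measure. The limit was passed by 5.21% of the whole combined list, 74.0% of replicate 1 and 75.4% of replicate 2. The upper quartile of width in replicate 1 was 4219.5 bp in the right cluster, 3402 bp in the left cluster and 3213 bp in the rest of IV. In replicate 2 it was 2886 bp, 2937.5 bp and 2955 bp, in that order. None of these patterns was tested.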
